A study of Danio rerio with 19 samples.

Results

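H3K9me3, the trimethylation of lysine 9 on histone H3, is deposited by enzymes of the SUV39/KMT1 and SETDB1 families and is bound by HP1 proteins, and it marks compacted, transcriptionally quiet chromatin. Most of its genomic extent in vertebrates lies over repeats and other gene-poor sequence, where it keeps transposable elements silent, while small patches occur at single genes. The regions described here are the broad H3K9me3 regions of zebrafish brain. They were chosen by length: peaks of all 6 deposited lists that overlapped by 1 bp or more were merged into union regions, and a region was kept when it contained at least 1 single called peak of 500 bp or more. Chromosomes 1 to 25 were used, without the part of chromosome 4 from 25 Mb on. Of 82989 union regions on these sequences, 2039 (2.46%) were broad, and they contained 7849 of the 242100 peaks of the whole series, 5683 of them 500 bp or longer. The whole series gave 90523 union regions, and the rule left out 256 broad regions on unplaced scaffolds and 320 on chromosome 4 from 25 Mb on.

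The study asked whether H3K9me3 in the brain differs between day and night and with age. Wild-type fish (stock SAT) of 4, 12 and 20 months (M) were kept in alternating light and dark and taken by day at ZT4, 4 h after lights on, or by night at ZT16, in the dark, and the antibody and the whole-brain tissue were the same in all 6 groups. The groups are made up of 3 H3K9me3 libraries each, 18 together, and a single further brain library made with a GFP antibody is labelled as the control, with no age or time. The number and sex of the fish behind a library are not given in the sources used here. The labels name 2 sequencing centres without assigning libraries to them. The paper's methods place the ChIP sequencing at Duke University and the RNA libraries at Columbia. The authors called peaks on each triplicate together and deposited 1 list a group, with a start, an end and a score per peak on the GRCz10 assembly. A list is called here by the age and by day or night. Neither libraries nor read depth can be told from a list, so there is no replicate error, no group comparison below has a test, and Wilson 95% intervals cover counting error only, with neighbouring regions treated as if they were independent. The chromatin had been sheared to an average of 500 bp, which limits how finely the edges of a region are resolved. A region absent from a list was not called there, and the lists differ greatly in size: on the sequences used they held 64645 peaks at 4 M day, 52435 at 4 M night, 27 at 12 M day, 7967 at 12 M night, 17591 at 20 M day and 81797 at 20 M night. No brain cell type can be read from chromatin positions, and whole brain mixes neurons, glia and vessel cells. No genome of the assembly was at hand, so the sequence and the repeats under the regions were not analysed here.

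Long peaks were a small part of each list and came from 5 of the 6. Peaks of 500 bp or more numbered 1235 at 4 M day (1.91% of the list, 1.81 to 2.02) and 1126 at 4 M night (2.15%, 2.03 to 2.28). At 12 M night there were 567 (7.12%, 6.57 to 7.70), and at 12 M day there was none among 27 peaks. At 20 M the lists held 817 at ZT4 (4.64%, 4.34 to 4.97) and 1938 at ZT16 (2.37%, 2.27 to 2.48). The number of long peaks was thus highest in the longest list, whereas their share was highest in the short list of 12 M night. Peaks of 1000 bp or more were few, with 79 at 4 M day, 71 at 4 M night, 22 at 12 M night, 40 at 20 M day and 111 at 20 M night. Chosen by length, the broad regions take a larger share of the covered base pairs than of the peaks. At 4 M day they took 2.30% of the peaks and 13.2% of the base pairs, and at 4 M night 2.73% and 15.3%. The same shares were 17.4% and 41.9% at 12 M night, 7.99% and 29.1% at 20 M day, and 2.59% and 14.9% at 20 M night. The other peaks had a median length between 69 and 72 bp in the lists of 4 M and 20 M and of 89 bp at 12 M night.

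The rule uses length in any list, so which lists contained a broad region is a description. At 4 M day, 1413 of the 2039 broad regions were listed (69.3%), beside 77.7% of all union regions. At 4 M night, 1353 were listed (66.4%), beside 63.0%. In the shorter lists the distance to the background was wide. The 12 M night list had 1235 of them (60.6%) beside 9.39% of all regions, and the 20 M day list had 1295 (63.5%) beside 21.0%. The 20 M night list had 2024 (99.3%) beside 98.0%, and the 12 M day list had 14 (0.687%) beside 0.0313%. Without the 20 M night list the shares of the remaining 1248 were 99.8% at 4 M day, 98.1% at 4 M night, 93.7% at 12 M night and 96.3% at 20 M day. The share over all union regions without that list was not computed, so these values have no background beside them. The 4 M day list, in which 1235 regions were broad, also made most of that choice itself. The longest peak inside a listed broad region had a median of 607 bp at 4 M day, 598 bp at 4 M night, 481 bp at 12 M night, 546 bp at 20 M day and 620 bp at 20 M night, so that at 12 M night most broad regions lay under the 500 bp limit and only 566 lay above it. At 12 M day the 14 were listed as narrow peaks of 52 to 254 bp. The length of a region in a list is that of its longest peak, so a region called as several peaks counts as shorter. Broad regions with 2 or more peaks were 153 of 1235 at 12 M night and 111 of 1295 at 20 M day. At 4 M day, 4 M night and 20 M night they were 72 of 1413, 76 of 1353 and 95 of 2024.

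The broad regions fell into 2 main kinds that were listed very differently. This split by list was made after the values were seen and carries no test. The first kind, 1232 regions (60.4%), was in 5 or 6 lists: 1218 in every list but 12 M day, and 14 in all 6. The second kind, 610 regions (29.9%), was in the 20 M night list and nowhere else. The split moved with the score: with one of at least 30, 42 broad regions were in 5 or 6 lists and 376 at 20 M night only. Long peaks at 12 M night scored 11 to 42, and only 7 of 567 reached 30. With peaks of any length counted, 2.32% of the broad regions at that score were listed at 12 M night, so few could be in 5 lists. In the 20 M night list, no long peak of the first kind scored under 30, beside 41.3% of the second. At the main setting, the remaining 197 regions (9.66%) had other combinations, among them 64 in both 4 M lists and 20 M night and 50 in 4 M day and 20 M night. The longest single peak had a median of 637 bp in the first kind (quartiles 560 and 755), 623 bp in the second (552 and 737) and 616 bp in the rest (553 and 723). The rule cut all of these lengths at 500 bp, so their closeness says little. Under the limit, regions with the same list patterns had medians of 177, 60 and 72 bp. Among regions without a long peak, 7.73% were in 5 or 6 lists and 21.4% were in the 20 M night list only. Counting only lists in which the peak itself reached 500 bp, 557 regions were broad in 5 lists, 252 in 4, 268 in 3, 123 in 2 and 839 in 1, and 791 of those 839 were broad at 20 M night alone.

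The score separated the same kinds. Scores were ranked within a list, because the lists name no scale for them, and a percentile of 50 is the middle of that list. In the 20 M night list, regions of the first kind had a median percentile of 98.5, with 10% of them below 93.2 and 10% above 99.8. Regions of the second kind had a median of 13.3, with the same limits at 6.67 and 17.7, and none of the 610 reached 50. Of the first kind, 1143 of 1232 lay at 90 or above and 14 lay under 50. Over all broad regions, 477 had a percentile from 10 to 20 and 1144 one of 90 or more, while each step of 10 between 20 and 90 held 22 to 48. The shorter regions of the series showed the same ordering at lower contrast. Those in 5 or 6 lists had a median percentile of 93.7 at 20 M night and those in that list only had 12.6. Length and score come from the same peak call, so they are not independent measures.

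**Figure D1:**
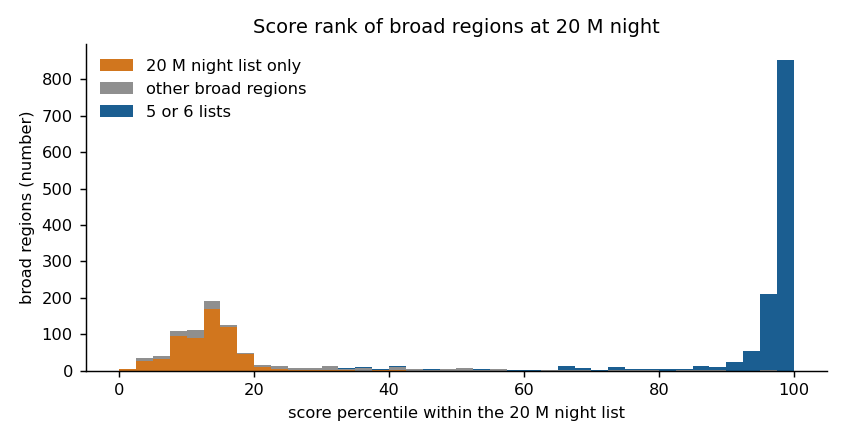
Number of broad regions (vertical axis) by score percentile within the 20 M night list (horizontal axis, bins of 2.5), stacked by the lists a region is in. The regions in that list only have a median percentile of 13.3 and those in 5 or 6 lists a median of 98.5, with few regions in between.

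The first kind also ranked high in both 4 M lists, but lower at 20 M day and near the middle of the list at 12 M night. Its median percentile was 97.9 at 4 M day, 97.2 at 4 M night, 73.8 at 20 M day and 55.9 at 12 M night. Scores of long peaks spanned 11 to 42 at 12 M night and 19 to 59 at 20 M day, against 13 to 546 at 20 M night, which are values of each list on its own. The 197 remaining broad regions had low median percentiles, of 18.8 at 4 M day, 19.6 at 4 M night, 13.8 at 20 M day and 24.3 at 20 M night, where 153 of 182 lay under 50.

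The length of a peak in 1 list went with its presence in others. Long peaks were taken from the 4 M day list alone and looked up in lists that had no part in that choice. Of 1235 such peaks, 98.2% (97.3 to 98.8) overlapped a peak at 4 M night, 93.8% (92.4 to 95.1) at 12 M night, 96.5% (95.3 to 97.4) at 20 M day and 98.9% (98.1 to 99.3) at 20 M night. Of the 63410 shorter peaks of the same list, 80.2% (79.9 to 80.5), 10.4% (10.2 to 10.6), 25.4% (25 to 25.7) and 98.0% (97.9 to 98.1) did. The difference was thus widest at 12 M night and 20 M day and smallest at 20 M night, whose list covers 98.0% of all regions. The peak found there was itself 500 bp or longer for 90.4% of the long peaks at 4 M night, 45.7% at 12 M night, 66.0% at 20 M day and 92.6% at 20 M night. Even the 12 M day list, with 27 peaks, overlapped 12 of the 1235 long peaks and 14 of the 63410 shorter ones.

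At 12 M night and 20 M day the share was also higher for longer peaks below the limit, apart from 63.6 and 63.2% at 20 M day for lengths from 100 and from 200 bp. At 20 M night it was not, with 99.0% under 100 bp, 92.3% from 100 bp and 95% from 200 bp. Among 4 M day peaks under 100 bp, 2.28% were overlapped at 12 M night and 15.4% at 20 M day. From 300 bp to under 400 bp these shares were 64.4% and 82.0%, from there to under 500 bp 85.0% and 92.3%, and at 1000 bp or more 96.2% in both lists. Starting from the 20 M night list the picture was another. Of its 1938 long peaks, 67.8% (65.7 to 69.8) were overlapped at 4 M day, below the 78.0% (77.7 to 78.3) of its shorter peaks, and 65.7% (63.5 to 67.8) at 4 M night, beside 64.1% (63.8 to 64.4). The share at 20 M day was 62.8% (60.6 to 64.9) beside 20.3% (20.0 to 20.6), and at 12 M night it was 60.2% (58.0 to 62.3) beside 8.31% (8.12 to 8.50). Reading the 2 directions together, 98.9% of long 4 M day peaks were overlapped at 20 M night, and 67.8% of long 20 M night peaks at 4 M day. Shorter peaks had 98.0% and 78.0%. The 20 M night list has 98.0% of all union regions and the 4 M day list 77.7%. The first share is thus near its background and the second lies below it.

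**Figure D2:**
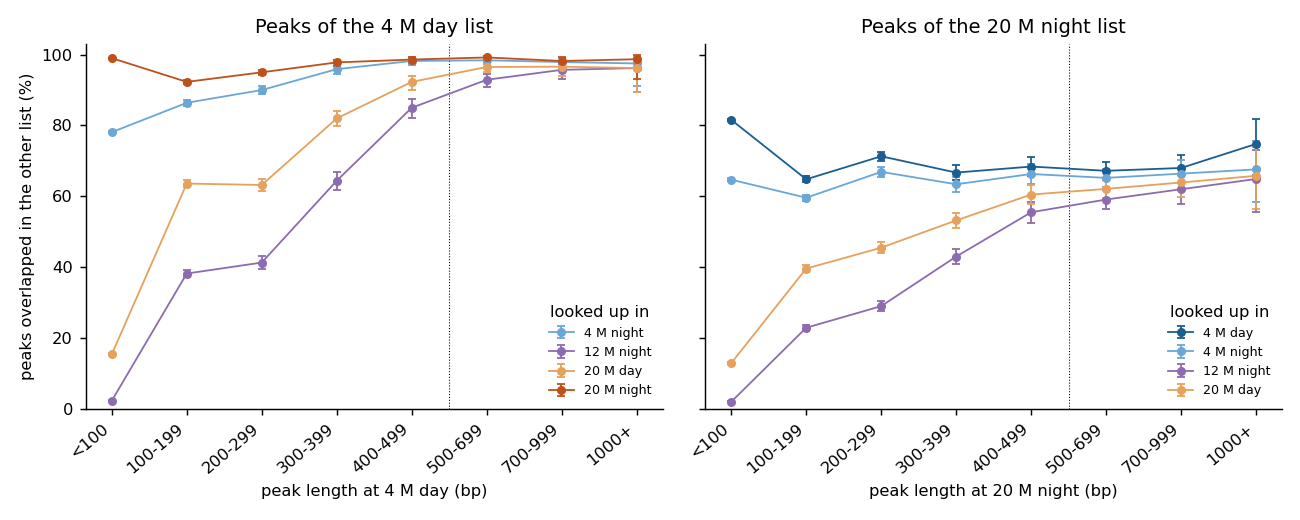
Share of peaks overlapped by 1 bp or more in another list (vertical axis, percent, Wilson 95% intervals) by peak length (horizontal axis, bp), for peaks of the 4 M day list (left) and of the 20 M night list (right), with the 500 bp limit dotted. From 4 M day the shares reach 96.2% at 12 M night and 20 M day for peaks of 1000 bp or more, and from 20 M night they reach 64.9% and 65.8%.

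Regions of the first kind had nearly the same edges in the 3 large lists (both 4 M lists and 20 M night), and edges farther apart in the pairs with 12 M night or 20 M day. Between the 4 M day and 4 M night lists, the starts of the longest peak differed by a median of 3 bp and the ends by 3 bp, and in 88.0% of 1232 regions both edges lay within 10 bp of each other. Between 4 M day and 20 M night the medians were 2 bp and 2 bp, with 82.4% within 10 bp at both edges. The edges at 20 M day lay 18 and 20 bp from those at 4 M day, with 2.84% within 10 bp, and those at 12 M night lay 32 and 33 bp away, with 0.162% within 10 bp. The offsets were close to equal at both edges in each pair. Between 12 M night and 20 M day, the shorter lists, the medians were 12 and 13 bp.

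Day against night and young against old were compared in length over regions in both lists compared that another list had chosen as broad. Neither length compared was itself used in the choice, but the choosing list was often close to 1 compared. In the first kind, 88.0% of regions had both edges within 10 bp between 4 M day and 4 M night, and 82.4% between 4 M day and 20 M night. A choice by length in 1 of these lists thus comes close to a choice by length in the others. The 4 comparisons share lists with each other. At 4 M, regions broad at 20 M night had a median of 616 bp at ZT4 and 602 bp at ZT16 (1267 regions), a median log2 ratio of ZT16 to ZT4 of -0.016 (interval of the median -0.017 to -0.015), and 91.9% of them were shorter at ZT16. At 20 M, regions broad at 4 M day had 560 bp at ZT4 and 625 bp at ZT16 (1192 regions), a log2 ratio of 0.098 (0.092 to 0.104), and 97.4% were longer at ZT16. From 4 M to 20 M at ZT4, regions broad at 4 M night had 639 and 569 bp (1116 regions), a log2 ratio of -0.091 (-0.096 to -0.087), and every one was shorter at 20 M. From 4 M to 20 M at ZT16, regions broad at 20 M day had 666 and 672 bp (815 regions), a log2 ratio of 0.013 (0.012 to 0.014), and 86.7% were longer at 20 M. The direction over broad regions was in each case that of the list sizes, the larger list having the longer peaks, and the part of list size in this was not tested.

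In base pairs, the difference over broad regions was close to that over narrow ones between times at 4 M and between ages at ZT16. It was larger over broad regions in the other comparisons, in which the choosing list was close in its edges to the larger list compared. The part of that choice in the difference was not tested. The median difference at 4 M was -7 bp for regions of 500 bp or more in the choosing list and -6 bp for those under it. From ZT4 to ZT16 at 20 M it was 41 bp (quartiles 30 and 80.25) and 30 bp (22 and 41). From 4 M to 20 M at ZT4 it was -40 bp (-68 and -30) and -30 bp (-39 and -23). From 4 M to 20 M at ZT16 it was 7 and 6 bp. Relative to length, the narrow regions moved more, with median log2 ratios of -0.112, 0.468, -0.466 and 0.069 in the same order. In the only comparison with 12 M, at ZT16 and with regions broad at 4 M day, the median went from 622.5 to 493 bp (1160 regions, log2 ratio -0.214, -0.241 to -0.191), a median difference of -85 bp with quartiles at -283 and -48 bp. Here, too, the narrow regions differed by less in base pairs, with a median of -43 bp. Relative to length they again moved more, with a median log2 ratio of -0.566. The summed length of all peaks in a region was not compared for 12 M.

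**Figure D3:**
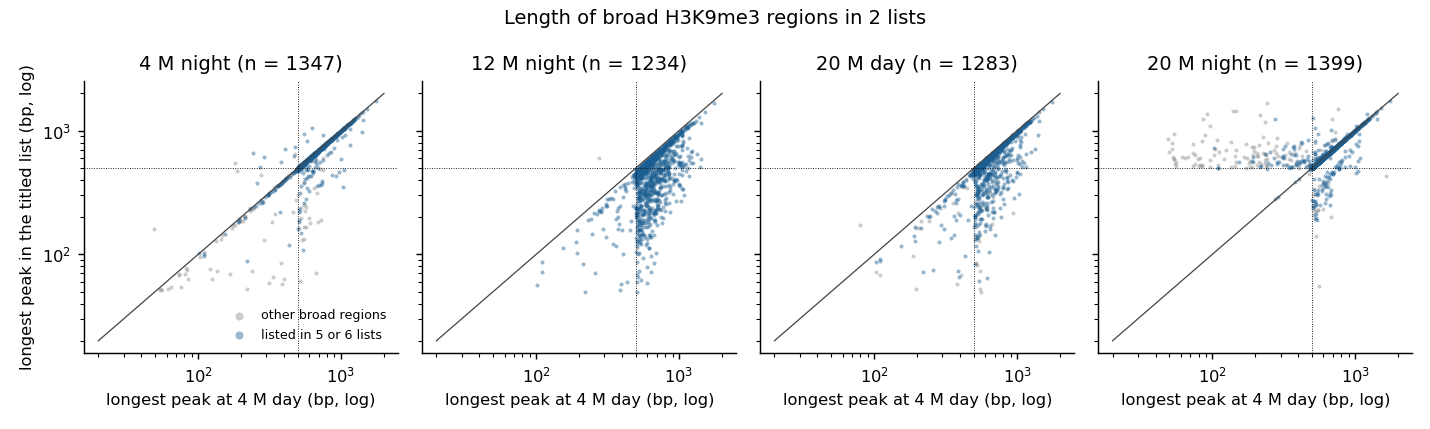
Longest peak of a broad region in the titled list (vertical axis, bp, log scale) against that at 4 M day (horizontal axis, bp, log scale). Points are regions in both lists, the diagonal marks equal length and dotted lines mark 500 bp. At 4 M night and 20 M night most points lie on the diagonal, at 12 M night and 20 M day they lie under it, and a band of regions that are short at 4 M day is long at 20 M night. By the rule, a region short at 4 M day must be long in another list, and 791 of the 2039 regions were broad at 20 M night alone.

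The longest regions were of both kinds. On the sequences used, the 3 longest peaks were all in the 20 M night list only and lay beside each other on chromosome 5: 820773 to 826538 with 5766 bp, 832652 to 837829 with 5178 bp and 826976 to 828854 with 1879 bp, at score percentiles of 15.5, 15.4 and 13.1. They belong to a row of 8 broad regions within 21.7 kb, from 816094 to 837829, each listed at 20 M night only. Of the 10 longest regions, 5 were in that list only. Among all 122 broad regions of 1000 bp or more, 81 were in 5 or 6 lists (6.57% of that kind). At 20 M night only there were 28 (4.59% of that kind). Besides the row on chromosome 5, 2 rows had at least 6 broad regions less than 10 kb apart. On chromosome 25, from 13114240 to 13154293, 8 broad regions lay among 43 union regions in 40.1 kb, 6 of them at 20 M night only. On chromosome 6, from 23526994 to 23534786, 6 lay in 7.79 kb, and the longest of these had 1665 bp at 20 M night but 242 bp at 4 M day and 233 bp at 4 M night. None of the regions in these 3 rows was in 5 or 6 lists. Such rows were rare, since 1703 of the 2039 broad regions (83.5%) had no other within 10 kb.

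The longest region present in 5 lists lay on chromosome 22 from 24528199 to 24529946. Its peak had 1746 bp at 4 M day, 1737 bp at 4 M night, 1687 bp at 12 M night, 1701 bp at 20 M day and 1747 bp at 20 M night, at percentiles of 99.6, 97.8, 69.6, 88.0 and 99.7. It was the longest peak in 4 of these 5 lists, all but 20 M night. Next came chromosome 3 from 59339999 to 59341514, with 1513, 1502, 1417, 1499 and 1513 bp in the same order. The region on chromosome 16 from 51849453 to 51850883 had 1431, 1424, 593, 1409 and 1428 bp. Its longest peak was thus of similar length in 4 lists and less than 600 bp long at 12 M night. On chromosome 2, 6872335 to 6873721, the lengths were 1386, 1381, 1287, 1314 and 1383 bp, and on chromosome 23, 34318242 to 34319547, they were 1305, 1295, 1200, 1274 and 1304 bp. In these regions the lowest length was again that of 12 M night, and the other 4 lengths lay close together.

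Other regions among the 10 longest that were broad in at least 4 lists were less even. Chromosome 15, 44709351 to 44710786, had 1426 bp at 4 M day and 1161 to 1235 bp in the other 4 lists. Chromosome 11, 1869375 to 1870772, had 1398 bp at 4 M day and 1396 bp at 20 M night but 977 bp at 4 M night, 926 bp at 20 M day and 511 bp at 12 M night. Chromosome 18, 28253966 to 28255327, had 1211, 1208, 549, 1163 and 1361 bp, and chromosome 7, 70141830 to 70143176, had 1343, 1336, 646, 707 and 1344 bp. At all 4, the lowest length was that of 12 M night. The last of the 10 lay beside the stc1l locus and is given with the loci. In all, 809 regions were broad in at least 4 lists, 805 of them in 5 or 6 lists.

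Some of the longest peaks were in only 1 or 2 lists. Chromosome 1, 58783998 to 58785633, had 1636 bp at 4 M day, at a percentile of only 7.03, and 431 bp at 20 M night, and was in no other list. Chromosome 17, 29244483 to 29245978, had 754 bp at 4 M day and 1496 bp at 20 M night, at percentiles of 3.36 and 12.9. Chromosome 12, 4086911 to 4088509, with 1599 bp, and chromosome 20, 55337884 to 55339474, with 1591 bp, were at 20 M night only, at percentiles of 17.7 and 13.8. All 4 ranked in the lower part of their lists. The longest broad region of a chromosome was in 5 lists on 13 of the 25 chromosomes and in 1 list on 4.

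The 14 broad regions in all 6 lists lay on 6 chromosomes and are the members that the 12 M day list, with 26 regions in all, contained. They ranked high elsewhere, at percentiles of 90.4 to 99.7 at 4 M day, 83.1 to 98.6 at 12 M night and 85.3 to 99.2 at 20 M night. On chromosome 1, 2917904 to 2918901, the lengths were 991, 982, 64, 836, 891 and 997 bp from 4 M day to 20 M night, and a second one, 2906259 to 2906824, lay before it with 564, 549, 163, 517, 531 and 564 bp. On chromosome 12, 47101658 to 47102525, the 12 M day peak of 254 bp was the longest of the 14 in that list, beside 696 to 865 bp in the others. At 12 M day the call thus covered only a part of each region.

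At the limit itself the regions passed smoothly from broad to not broad. Over the 5 lengths just under 500 bp, 4 to 11 regions had each length, and from 500 to 505 bp, 8 to 15 had. Just inside were chromosome 1, 26366092 to 26366591, and chromosome 1, 43582353 to 43582852, both with 500 bp at 20 M night only, and chromosome 8, 5429754 to 5430253, with 500 bp at 4 M day and 444 to 492 bp in 4 other lists. Just outside, 1 bp short of the limit, were chromosome 6, 14789097 to 14789595, chromosome 9, 53545326 to 53545824, and chromosome 15, 45817650 to 45818148, which were in 5, 4 and 5 lists.

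Broad regions gathered towards the chromosome ends, a property the length rule did not use. Position was taken as a share of the distance from the chromosome's start to its last peak, and chromosome 4, of which no far end was used, was left out. Of 2025 broad regions, 19.8% (18.1 to 21.6) lay within 5% of an end, beside 11% (10.8 to 11.2) of 79685 regions without a long peak. Within 20% of an end these shares were 70.8% (68.7 to 72.7) and 45.5% (45.2 to 45.9), and in the middle 40% of the span they were 17.0% (15.4 to 18.7) and 34.8% (34.4 to 35.1). The share within 20% of an end was higher for broad regions on each of the 24 chromosomes, by 7.79 to 36.3 percentage points. It ranged from 51.8 to 85.7% for broad regions and from 40.9 to 49.4% for the others.

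The kinds differed in the share within 20% of an end, but hardly within 5%. The share within 5% was 19.4% (17.3 to 21.7) for regions in 5 or 6 lists, 20.8% (17.7 to 24.2) at 20 M night only and 19.5% (14.5 to 25.6) for the rest. Of regions in 5 or 6 lists, 78.8% (76.4 to 81.0) lay within 20% of an end and 9.57% (8.04 to 11.3) in the middle 40%. For regions at 20 M night only these were 58.3% (54.4 to 62.2) and 28.7% (25.2 to 32.4). Among narrow regions, too, those in 5 or 6 lists had the highest share within 20% of an end, 59.8% (58.6 to 61.0). It was 49.0% (48.2 to 49.7) for those at 20 M night only and 42.9% (42.5 to 43.3) for the rest, so it did not follow the number of lists step by step. With 59.0% (52.0 to 65.6) of the remaining broad regions, the broad ones had the higher share for each of these list patterns. Within 5% of an end the narrow regions had 14.3%, 15.7% and 9.25% in the same order, so there those in 5 or 6 lists were not highest. The highest 5% bins for regions in 5 or 6 lists were not the outermost ones but the next, with 12.7% at 5 to 10% of the span and 15.2% at 90 to 95%, and the lowest was 0.491% at 40 to 45%. By list, the share of broad regions within 20% of an end was 77.8% at 4 M day, 78.4% at 4 M night, 77.4% at 12 M night, 78.1% at 20 M day and 70.7% at 20 M night. The regions with a shorter peak in the same lists had 44.4, 44.7, 61.6, 51.6 and 45.4%, so the gap was narrowest at 12 M night.

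**Figure D4:**
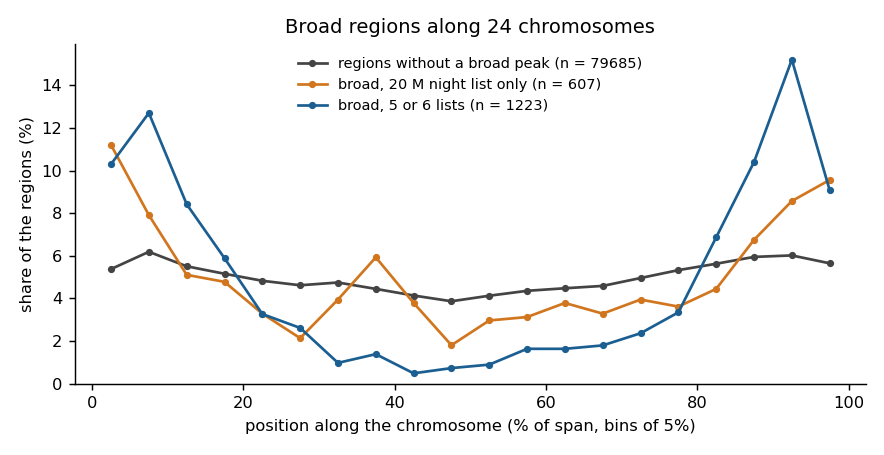
Share of regions (vertical axis, percent) in bins of 5% of the chromosome span (horizontal axis), over 24 chromosomes without chromosome 4. Broad regions in 5 or 6 lists reach 15.2% in the bin from 90 to 95% and 0.491% in that from 40 to 45%, while regions without a long peak stay between these values throughout.

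Every chromosome had broad regions, at 1.58 per Mb in all. Chromosome 18 had the most for its length, 121 or 2.38 per Mb, which was 3.38% of its union regions. The part of chromosome 4 before 25 Mb had the fewest, 14 or 0.560 per Mb and 1.09% of its regions. The other 23 chromosomes lay between 1.31 and 2.06 per Mb, with chromosomes 25 and 12 highest (2.06 and 2.03) and chromosome 8 lowest. Union regions of all lengths varied less, from 60.9 to 69.6 per Mb on those chromosomes, with 70.3 on chromosome 18 and 51.2 on the part of chromosome 4. The excess on chromosome 18 lay in the first kind: 90 of its 121 broad regions were in 5 or 6 lists, 1.77 per Mb beside 0.665 to 1.42 on the 23 others, whereas its 30 regions at 20 M night only (0.589 per Mb) lay inside the range of 0.120 to 0.697 over all chromosomes.

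**Figure D5:**
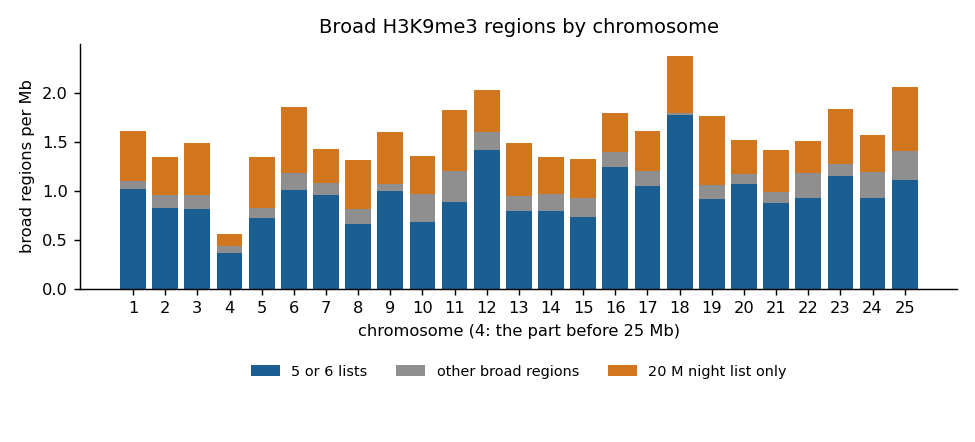
Broad regions per Mb of span (vertical axis) on each chromosome (horizontal axis), stacked by the lists a region is in. Chromosome 18 has 2.38 per Mb, the part of chromosome 4 before 25 Mb has 0.560, and the others lie between 1.31 and 2.06.

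Union regions were slightly more frequent around the broad regions. Within 50 kb on each side of a broad region there were a median of 8 other union regions (quartiles 6 and 11), beside 7 (5 and 9) around regions without a long peak. Within 250 kb the medians were 40 and 33. The mean within 10 kb was 3.6 around regions at 20 M night only and 1.76 around regions in 5 or 6 lists, beside 1.85 around narrow regions, while the median was 2, 2 and 1.

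On the sequences used, few broad regions lay at the transcripts for which the study gives positions. These are its loci with diurnal or age-related expression in the brain. Of 358 annotated and 979 unannotated loci, 351 and 553 lie on the sequences used, with a median length of 17.7 kb and 1.4 kb. Many unannotated loci thus lie on the sequences left out, where they were not examined. A broad region lay within 3 kb of 9 annotated loci (2.56%, 1.35 to 4.80) and of 28 unannotated loci (5.06%, 3.53 to 7.22). A union region of any length lay within 3 kb of 71.8% and 55.3% of them. Seen from the regions, 11 broad regions (0.539%, 0.302 to 0.963) were near an annotated locus, beside 0.985% of the narrow ones, and 29 (1.42%, 0.992 to 2.04) were near an unannotated locus, beside 0.972%. The interval over broad regions lay just below the value of the narrow ones for annotated loci and just above it for unannotated loci. With no flank this separation was lost, at 0.441% (0.232 to 0.837) beside 0.760% for annotated loci and 0.932% (0.597 to 1.45) beside 0.597% for unannotated loci. With a flank of 10 kb it was kept, at 0.687% (0.409 to 1.15) beside 1.35% and 2.55% (1.95 to 3.33) beside 1.58%. Near annotated loci, 6 of the 11 were in 5 or 6 lists and 5 at 20 M night only, and near unannotated loci 18 of 29 and 7 of 29 were.

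A broad region in 5 lists lay at 5 annotated loci, whose genes belong to different pathways. Beside stc1l, which encodes a stanniocalcin, a family of secreted regulators of calcium balance in fish, a region on chromosome 10 from 42888320 to 42889584 began 4 bp past the locus. Its peak had 1265, 1259, 1144, 1239 and 1262 bp at 4 M day, 4 M night, 12 M night, 20 M day and 20 M night, the lowest of these at 12 M night. The nr1d4b locus on chromosome 11, 1939265 to 2227969, belongs to the Rev-erb family of nuclear receptors, which repress transcription in the second loop of the circadian clock. It held 2 broad regions, of 548, 541, 508, 531 and 551 bp from 2141835 and of 743, 740, 669, 714 and 750 bp from 2190123, among 20 union regions. Both were broad in all 5 lists, by day and by night. Their percentiles lay between 96.2 and 99.8 in the lists of 4 M and at 20 M night. They were lower at 20 M day, with 91.6 and 77.3, and at 12 M night, with 69.6 and 63.3.

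A region 1984 bp from pecam1, an adhesion protein of endothelial cells and platelets, had 531, 531, 507, 524 and 529 bp. At igfn1.1, which encodes an immunoglobulin and fibronectin domain protein known from mammalian skeletal muscle, the lengths were 517, 513, 430, 474 and 522 bp, so that it was broad in 3 of the 5 lists. The gldc locus, for the glycine decarboxylase of the mitochondrial glycine cleavage system, had a region of 519, 521, 277, 305 and 534 bp, and a second one of 518 bp at 20 M night only. The lists of 12 M night and 20 M day were the ones with the short call at both igfn1.1 and gldc. These loci are long, with 205 and 80.3 kb, and had 19 and 13 union regions on them or within 3 kb.

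The other annotated loci had a broad region at 20 M night only, all at low rank. These were col1a1b, a chain of type I collagen (790 bp, percentile 17.5), ifih1, a cytoplasmic sensor of viral double-stranded RNA (642 bp, 15.8), slc2a1a, the glucose transporter GLUT1 (540 bp, 1.57), and gpib, the glycolytic enzyme glucose-6-phosphate isomerase (506 bp, 14.5). The region overlapped the locus in all 4. In the same order, these loci span 82.5, 129, 74.8 and 21.9 kb. They had 10, 13, 17 and 2 union regions of any length on them or within 3 kb. The 9 annotated loci with a broad region were all longer than the median of 17.7 kb, and locus length was not accounted for. Of the 9 gene symbols, 4 are in the gene name table used, and all are printed as the study's lists give them.

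Among unannotated loci, the longest region was at XLOC_036117 on chromosome 20, 55333474 to 55334763, with 1290 bp at 20 M night only. The region of 1591 bp named above is on the same chromosome, a little farther on. XLOC_018112 on chromosome 15 had a region of 1184 bp at most, from 62038 to 63221, 387 bp from the locus, and XLOC_003669 on chromosome 10 had one of 1010 bp at most, from 13112880 to 13113889, 266 bp away. Both were broad in 5 lists. XLOC_047328 on chromosome 25 (896 bp) and XLOC_029527 on chromosome 19 (770 bp) had theirs over the locus and at 20 M night only.

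No broad region lay within 3 kb of the listed genes of the clock and of muscle that the study names. The share was 2.56% over the annotated loci on the sequences used, so that 0 of 9 and 0 of 11 are near that background. Of 9 clock genes (clocka, arntl2, per1b, per2, cry1aa, cry2, bhlhe40, bhlhe41 and nr1d1), which take part in the feedback loops of the oscillator, 6 had a union region within 3 kb and none had a broad one. The list does not include nr1d4b, which had the 2 broad regions given above. The nearest broad region was 44.9 kb from per1b and the distance was greatest at cry1aa, with 2566 kb. Of 11 muscle genes (myl1, myl10, myl13, mylpfa, mybpc1, mybpc2a, tnnc1b, tnni1d, tcap, myhz2 and actc1b), which encode parts of the contractile apparatus, 6 had a union region and none a broad one, with distances from 23.6 kb at myl13 to 1662 kb at tnni1d. At slc4a1a, the anion exchanger of red blood cells, and fbxo32, a ubiquitin ligase subunit of muscle atrophy, the nearest broad regions were 335 and 412 kb away.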

How the data were processed

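Brain H3K9me3 ChIP-seq reads (50-bp, single-end) were mapped to GRCz10 by the authors with Bowtie2, and peaks were called with MACS2 (2.2.1 in the submitters' processing notes) on each triplicate at a stated FDR of 0.01. The deposited lists are BED files of 6 columns, and their value is a score per peak, a whole number whose scale is not named. The control used in the peak calls is not given in the sources used here.

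Peaks were merged at 1 bp of overlap, shares were given Wilson 95% intervals, medians the interval of their binomial ranks, and scores mid-rank percentiles within a list. Loci came from the study's lists of diurnal and age-related transcripts (positions and names only), with 3 kb on each side. Positions count from 1. The members, lists and comparisons were chosen with earlier results of these data known. Named regions follow a rule: the 10 longest, the 10 longest broad in at least 4 lists, the 3 longest a list, 3 on each side of the limit, and loci within 3 kb. Those in all 6 lists or in rows were chosen after their values were seen. Alternatives were limits of 400, 600 and 1000 bp, merging across 1 kb, whole-region length, a score of at least 30, other sequences, lists left out, reciprocal overlap of 50%, and other windows and flanks. The tools were pandas 2.3.3 and numpy 2.4.6 in Python 3.11.15, with scipy 1.17.1 for intervals and matplotlib 3.10.9 for plots, and merging was tested on simulated data and checked against bedtools 2.31.1.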

Additional observations from a re-analysis of the deposited data

Results flagged for a closer look

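The number of broad peaks differed between day and night in opposite directions at 2 ages. On the log2 scale, night over day came to -0.13 at 4 M (1235 to 1126) and 1.25 at 20 M (817 to 1938). Likewise, 20 M over 4 M came to -0.60 at ZT4 and 0.78 at ZT16. With 1 list a group these differences were not tested. Over the 1232 regions in 5 or 6 lists alone, the signs were the same and the ratios closer to 0: -0.08 at 4 M (1159 to 1094) and 0.52 at 20 M (811 to 1164) for time, and -0.52 at ZT4 and 0.09 at ZT16 for age. The size of the whole list moves in the same directions, and its part in the result was not tested. As a share of the list, long peaks went the other way between day and night. The share was 1.91% by day and 2.15% at night at 4 M, and 4.64% and 2.37% at 20 M. From 4 M to 20 M it rose at both times, from 1.91 to 4.64% at ZT4 and from 2.15 to 2.37% at ZT16.

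Long peaks also occurred on sequences that the rule leaves out. There were 256 broad regions on unplaced scaffolds, 8.74% of the union regions there, and 320 on chromosome 4 from 25 Mb on, 6.95%, beside 2.46% on the sequences used. No control list was there to set them against.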

How the results depend on the processing

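No paired analysis was possible because each group's 3 libraries were merged into 1 list, so replicate numbers cannot be used and no library can be left out. Of 222 recomputed values, 117 stayed within their counting interval (counts: within 1.5 times) and 105 moved. Among the 108 values of main results (numbers, lookups, length ratios, neighbours, position and loci), 63 moved. Among the 114 of descriptive results (the 2 kinds, shares per list and score percentiles), 42 moved. Only the log2 length ratios among the recomputed values have a sign to change, and none of these ratios changed it. The other values are counts, shares, percentiles and numbers of neighbours, which are never negative. Base composition was not run, for want of a genome.

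The number of broad regions was 3241, 1222 and 122 at limits of 400, 600 and 1000 bp and 1248 without the 20 M night list. The number of broad peaks at these limits was 1961, 745 and 79 at 4 M day, 1789, 672 and 71 at 4 M night, 962, 288 and 22 at 12 M night, 1332, 474 and 40 at 20 M day, and 3083, 1155 and 111 at 20 M night. With a score of at least 30 the 12 M night list kept 7. With that score, broad regions in 5 or 6 lists numbered 42 in place of 1232, and those at 20 M night only 376 in place of 610. Without the 20 M night list, 99.8, 98.1, 93.7 and 96.3% of the broad regions were listed at 4 M day, 4 M night, 12 M night and 20 M day, with no background share computed.

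Of long 4 M day peaks, a reciprocal overlap of 50% left 95.7% at 4 M night, 73.7% at 12 M night, 86.6% at 20 M day and 96.0% at 20 M night. A score of at least 30 gave 99.9%, 2.90%, 94.6% and 99.9%. The value of 2.90% follows from the scores at 12 M night, which end at 42 among its long peaks. The other limits gave 90.6, 95.4 and 96.2% at 12 M night, and 400 bp gave 95% at 20 M day. Of long 20 M night peaks, 1000 bp, reciprocal overlap and score gave 74.8, 62.0 and 76.9% at 4 M day and 65.8, 54.8 and 69.6% at 20 M day.

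Log2 length ratios at 400, 600 and 1000 bp were -0.018, -0.014 and -0.009 between times at 4 M, 0.117, 0.084 and 0.059 at 20 M, -0.109, -0.080 and -0.054 between ages at ZT4, and 0.016, 0.011 and 0.006 at ZT16. Windows of 10 and 250 kb held 2 and 40 other regions. Within 10% of an end lay 43.4%, and within 5% at 1000 bp 23.0%. The share within 20% of an end was 75.4% with a score of at least 30 and 78.8% over regions in 5 or 6 lists, both added after the data were seen. Broad regions near annotated loci numbered 18, 4 and 1 at the 3 limits, and near unannotated loci 18 and 4 at 600 and 1000 bp, 19 with no flank and 52 with 10 kb.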

Other observations

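The 2 left-out sets were unlike each other. On unplaced scaffolds, 163 of the 256 broad regions (63.7%) were in 5 or 6 lists, close to the 60.4% on the sequences used. At 20 M night only there were 46 of the 256, beside 29.9% of the broad regions on the sequences used. Regions broad in a list numbered 192 at 4 M day, 162 at 4 M night, 78 at 12 M night, 118 at 20 M day and 231 at 20 M night. The share of all 2929 union regions there in each list was not computed, so these counts have no background beside them.

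On chromosome 4 from 25 Mb on, a stretch known in zebrafish as late-replicating, repeat-rich heterochromatin, 21 of the 320 (6.56%) were in 5 or 6 lists and 31 were at 20 M night only. There, 244 regions were broad at 4 M day and 38 at 4 M night, whereas 21 were broad at 20 M day and 112 at 20 M night, and 11 at 12 M night. At 4 M day, 279 of the 320 were listed, and at 4 M night 151 were. The share of all 4605 union regions there in each list was not computed, so these counts have no background beside them. The larger number of broad regions was thus found by day at 4 M and at night at 20 M. The gap between both 4 M lists was wider than the 1235 and 1126 broad peaks of the other sequences. These are counts from 1 list a group, with no test.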
